A study of Caenorhabditis elegans with 4 samples.

Results

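The 10 genes described here encode parts of the transport machinery of cilia in *C. elegans*. They are *che-2*, *che-11*, *che-13*, *osm-1*, *osm-5*, *osm-6*, *dyf-1*, *dyf-2*, *bbs-1* and *bbs-8*, chosen by name for their role, with earlier results of these data known, out of 46096 listed genes, of which 19519 are protein-coding. Levels were measured in the *prg-1* mutant strain *wm161*, in whole worms fed OP50 at 20°C, with 1 poly(A) RNA library per larval stage, L1 to L4. All 4 libraries carry the *prg-1* mutation, and stages of this strain were compared with each other, since wild-type worms were not analysed here. The values are FPKM (sequenced fragments relative to transcript length and to all fragments mapped in that library), so levels of different genes can be set side by side, and each is given with the 95% interval that Cufflinks wrote beside it. That interval covers the estimate within 1 library, and the spread between cultures is unknown.

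In *C. elegans* cilia are found only at the dendrite tips of a set of sensory neurons, where they hold the receptors for odours, salts, touch and temperature. Intraflagellar transport (IFT) builds and maintains them: kinesin motors carry particles made of the IFT-A and IFT-B complexes out to the tip, and a dynein motor brings them back. The BBSome, named after the human disorder Bardet-Biedl syndrome, travels with these particles and helps to hold the IFT-A and IFT-B complexes together. Worms that lack one of these genes often have short or malformed cilia, respond poorly to chemicals (the *che* phenotype), fail to avoid high osmolarity (*osm*) or fail to take up dye into their sensory neurons (*dyf*).

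All 10 genes were detected at each stage and no estimate had failed or lay outside its own interval. Across the genes the FPKM ran from 1.97 to 4.66 at L1 (median 2.58) and from 0.710 to 3.57 at L2 (median 1.81). The later ranges were lower, 1.03 to 2.79 at L3 (median 1.35) and 0.865 to 2.18 at L4 (median 1.05). Each of the 10 stood lower at L4 than at L1, where 57.9% of the protein-coding genes that reached 1 FPKM at either stage did. The FPKM at L1 was 1.82 to 3.33 times that at L4. The intervals of L1 and L4 did not overlap for 8 of the 10, where 21.8% of those protein-coding genes were lower with intervals apart. These are low levels in whole worms, at percentile 18.5 to 44.9 of the detected protein-coding genes of a library. The widths of the intervals are those that counting error alone would give with 8.16 to 123 fragments per gene and stage, so differences of less than about the width of an interval could not be seen.

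The libraries were of nearly equal depth: judged by the steps between low values, L2 was 1.01, L3 1.04 and L4 1.05 times as deep as L1. Transcripts of *prg-1* itself were listed at 11.02 to 23.6 FPKM, which does not check the genotype because the value covers the whole gene. Of the 19519 protein-coding genes, 12307 to 12563 reached 1 FPKM at a stage. Estimates had failed for 18 to 41 listed genes a library, and for 2191 to 2325 the value lay outside its own interval. In whole worms a lower level can come from fewer cells of a type or from less RNA per cell, and these cannot be told apart.

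**Figure D1:**
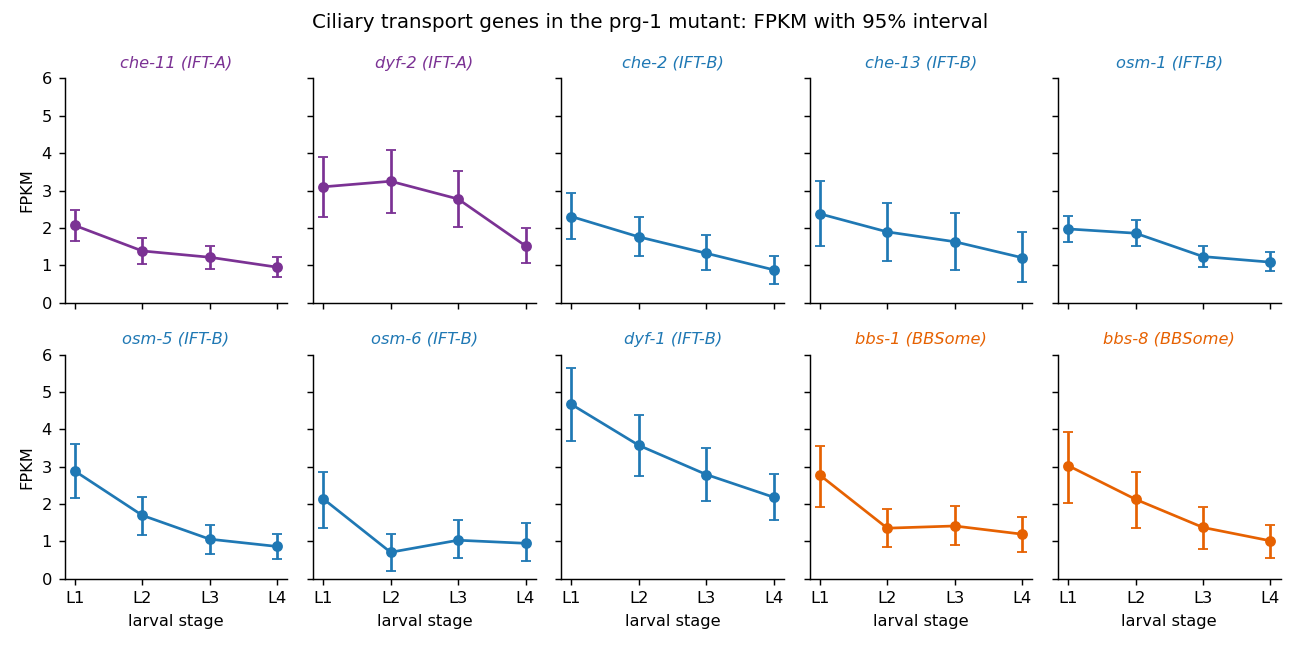
FPKM (vertical axis) at the larval stages L1 to L4 (horizontal axis) for each of the 10 genes, with 1 library per stage. Points are the deposited values and bars the 95% Cufflinks interval, coloured by complex. *dyf-1* starts highest at 4.66. All 10 genes stand lower at L4 than at L1, where 57.9% of the protein-coding genes that reached 1 FPKM at either stage do.

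The IFT-A complex is needed chiefly for the return of particles from the ciliary tip. *che-11* (C27A7.4, the worm IFT140; chromosome V, 12144295 to 12150689, reverse strand) stood at 2.07 FPKM (1.64 to 2.49) at L1 and then, stage by stage, at 1.39 (1.03 to 1.73), 1.22 (0.899 to 1.52) and 0.951 (0.689 to 1.22). Its L1 interval lay wholly above those of L3 and L4 and overlapped that of L2. *dyf-2* (ZK520.3, the worm IFT144; chromosome III, 13674881 to 13686445, reverse strand) stood at 3.10 FPKM (2.28 to 3.91), 3.25 (2.39 to 4.10), 2.78 (2.03 to 3.51) and 1.52 (1.05 to 1.99) in the same order. This gene was the exception in its timing, since the first 3 intervals overlapped and only L4 stood apart from them, below each. Relative to L1, the summed FPKM of the pair was 89.7% (L2), 77.2% (L3) and 47.8% (L4).

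The IFT-B complex carries cargo out along the cilium, and 6 of the 10 genes belong to it. *osm-5* (Y41G9A.1, the worm IFT88; chromosome X, 2984278 to 2991450, forward strand), whose loss leaves stunted cilia, stood at 2.88 FPKM (2.16 to 3.60), 1.70 (1.18 to 2.19), 1.06 (0.673 to 1.45) and 0.865 (0.531 to 1.19) in stage order. Its L1 interval lay wholly above those of L3 and L4. It had the largest difference of the 10, with an L1 level 3.33 times that at L4 (1.81 to 6.78 by the intervals). The ranges of this ratio overlapped among all 10 genes, so their order by ratio was unresolved. *osm-5* passed from the fourth highest at L1 to the lowest at L4, although its interval at L4 overlapped those of all the others but *dyf-1*.

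*dyf-1* (F54C1.5, the worm IFT70; chromosome I, 4989555 to 4994661, reverse strand) is needed for the kinesin OSM-3 to move particles along the outer part of the cilium. It stood at 4.66 FPKM (3.68 to 5.65), 3.57 (2.76 to 4.38), 2.79 (2.08 to 3.50) and 2.18 (1.57 to 2.81) from L1 to L4. It was the highest of the 10 at every stage, and its L1 interval lay wholly above those of L3 and L4. *che-2* (F38G1.1, the worm IFT80; chromosome X, 481378 to 486504, forward strand) stood at 2.30 FPKM (1.69 to 2.92), 1.76 (1.24 to 2.28), 1.32 (0.878 to 1.80) and 0.879 (0.497 to 1.26). Each stage overlapped its neighbours, and L1 stood apart from L4 alone.

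*osm-1* (T27B1.1, the worm IFT172; chromosome X, 16541330 to 16551213, forward strand) has the longest exonic sequence of the 10, with 6024 bases, and hence the narrowest relative intervals. It stood at 1.97 FPKM (1.62 to 2.33), 1.86 (1.52 to 2.20), 1.23 (0.963 to 1.51) and 1.09 (0.838 to 1.34) from L1 to L4. The values formed 2 pairs, with L1 and L2 together above L3 and L4 and no overlap between the pairs. Its L1 level was 1.82 times that at L4 (1.20 to 2.78 by the intervals), the smallest ratio of the 10 by point value.

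For the other IFT-B genes the intervals of L1 and L4 overlapped. *che-13* (F59C6.7, the worm IFT57; chromosome I, 10507000 to 10515506, reverse strand) stood at 2.38 FPKM (1.51 to 3.25), 1.90 (1.12 to 2.68), 1.63 (0.880 to 2.39) and 1.20 (0.546 to 1.88), and no stage stood apart from another. *osm-6* (R31.3, the worm IFT52; chromosome V, 11924632 to 11927406, reverse strand) stood at 2.14 FPKM (1.36 to 2.85), 0.710 (0.213 to 1.21), 1.03 (0.550 to 1.58) and 0.949 (0.475 to 1.49). It was the only gene of the 10 whose lowest value was at L2, where its interval lay wholly below that of L1, and the intervals of L2, L3 and L4 overlapped. Both genes have short exonic sequences, of 1510 and 1508 bases. The summed FPKM of the IFT-B genes, again relative to L1, was 70.3% (L2), 55.5% (L3) and 43.8% (L4).

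*bbs-1* and *bbs-8* encode BBSome subunits. *bbs-1* (Y105E8A.5; chromosome I, 14371142 to 14376018, reverse strand) stood at 2.77 FPKM (1.92 to 3.55) in L1 larvae and at 1.35 (0.837 to 1.86), 1.41 (0.902 to 1.94) and 1.19 (0.711 to 1.64) in the later stages. Its L1 interval lay above those of L2 and L4 and met that of L3 at its edge. *bbs-8* (T25F10.5; chromosome V, 6762476 to 6765072, reverse strand) stood at 3.03 FPKM (2.04 to 3.92), 2.13 (1.35 to 2.86), 1.37 (0.806 to 1.92) and 1.02 (0.546 to 1.44), lower at each later stage, with L1 above L3 and L4. For this pair the sum relative to L1 was 60.0% (L2), 48.0% (L3) and 38.1% (L4). With the whole set summed, the 10 genes came to 27.3, 19.6, 15.8 and 11.8 FPKM in stage order, the last being 43.4% of the first. The sum of the lower bounds at L1 (19.9) was above the sum of the upper bounds at L4 (16.3).

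The order of the 10 levels within a stage was largely unresolved. No gene at any stage had an interval wholly above that of the gene next below it. Of the 45 pairs of genes, 7 had intervals apart in L1 and 16 in L2, followed by 14 in L3 and 6 in L4. At L1 all 7 involved *dyf-1*, which lay above every other gene but *dyf-2* and *bbs-8*, whose intervals overlapped its own. At L3 *dyf-1* and *dyf-2* each lay wholly above the same number of genes, 7 apiece.

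Stages were compared by 2 rules over all protein-coding genes that reached an FPKM of 1 in either stage compared. The first asked that the 95% intervals did not overlap. The second asked in addition for a 2-fold difference, that is a log2 difference of at least 1 in FPKM + 1, which understates the change of genes at levels as low as these. With 1 library per stage no test was possible, and neither rule has a replicate check. Adjacent comparisons share libraries with each other and with L4 against L1, so they are not independent.

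At L4 against L1, 8 of the 10 genes were lower with intervals apart and none was higher, where 21.8% of 13365 protein-coding genes were lower and 17.5% higher. After rescaling by the median ratio between libraries, which moved the median of all genes to 0.01, the same 8 were lower, beside 15.6% of all genes, and lower genes made up 42.3% in place of 55.5% of those with intervals apart. Low genes have wide intervals and pass this rule less easily. Among the 2145 protein-coding genes whose mean FPKM lay within the range of the 10 (1.21 to 3.30), 12.5% were lower and 17.9% higher. The median log2 difference of the 10 was -0.74, with a range of -1.06 to -0.51, beside -0.10 over all genes and -0.03 over those at the same level. Each of the 10 stood in the lower part of that distribution, with 5.40% of protein-coding genes lower than *osm-5* and 20.5% lower than *osm-1*. By the 2-fold rule *osm-5* alone passed, at -1.06, where 4.66% of all genes were lower. After either rescaling no gene did, with *osm-5* at -0.98 by the median ratio. The rescaling to an equal sum multiplied FPKM by 0.81 at both L1 and L4, so the pseudocount of 1 weighed more there. Without rescaling *bbs-8* missed the 2-fold rule narrowly, with a log2 difference of -0.999. With a pseudocount of 0.1 in place of 1 the rule was passed by 6 genes, where 6.72% of all genes were lower. These were *che-11*, *che-2*, *osm-5*, *dyf-1*, *bbs-1* and *bbs-8*.

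The stages between L1 and L4 were compared by the same rules. At L3 against L1, 5 of the 10 were lower with intervals apart, *che-11*, *osm-1*, *osm-5*, *dyf-1* and *bbs-8*, where 19.3% of all genes were lower. Single steps were mostly smaller than the intervals. At L2 against L1, *osm-6* and *bbs-1* were lower with intervals apart, 2 of 10, where 16.5% of all genes were lower. After median-ratio rescaling *bbs-1* no longer passed and *osm-6* did, and the balance over all genes turned from 2161 lower and 1701 higher to 1374 lower and 2095 higher. The median log2 difference was -0.34, beside -0.12 over all genes. A lower value was found for 9 genes, where 62.0% of all genes had one, and *dyf-2* was higher by 0.05. After median-ratio rescaling the median was -0.25, beside -0.01 over all genes, and 8 genes had a lower value. At L3 against L2, *osm-1* was lower with intervals apart, 1 of 10, where 14% of all genes were lower. The median was -0.21, beside -0.03 over all genes. At L4 against L3, *dyf-2* was lower with intervals apart, 1 of 10, where 7.47% of all genes were lower. There the median was again -0.21, beside 0.004 over all genes, and all 10 values were lower, where 49.5% of all genes were. The counts at single steps were thus close to the share of all genes, although among genes at the same level the shares were lower, at 6.02%, 6.7% and 2.33%. No gene was higher with intervals apart at any of these steps, where 13%, 10.3% and 11.7% of all genes were.

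**Figure D2:**
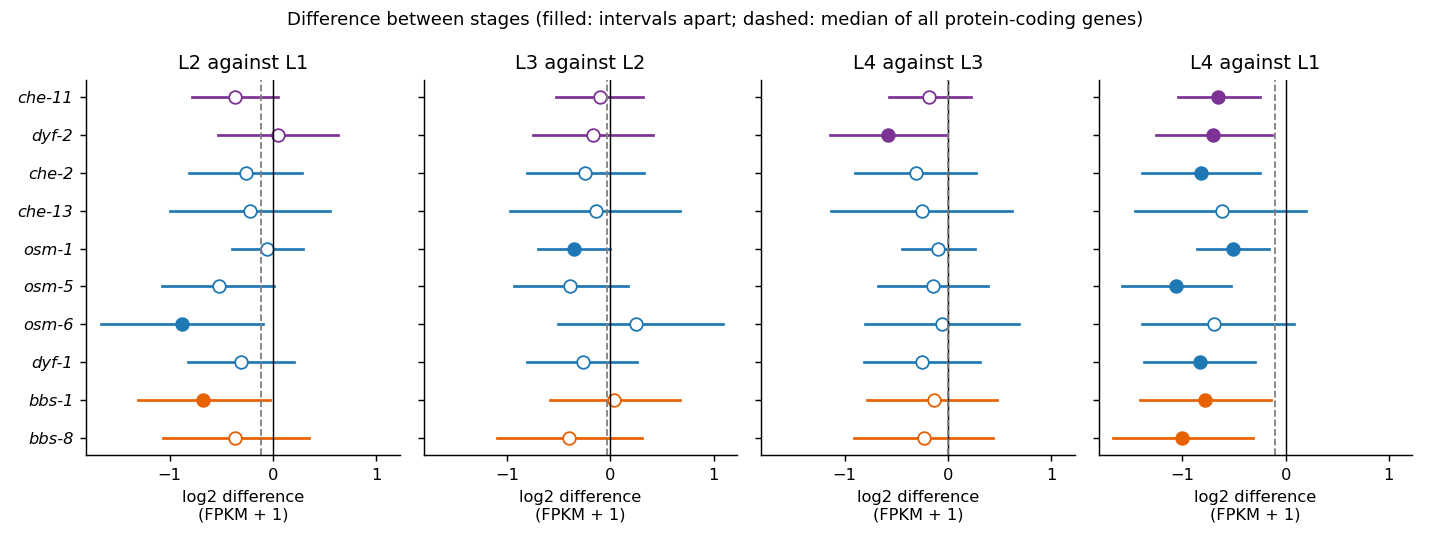
Log2 difference in FPKM + 1 (horizontal axis) of each gene (vertical axis) between adjacent stages and between L1 and L4. Lines span the differences that the 2 intervals allow, and filled points have intervals that do not overlap. The dashed line is the median of all protein-coding genes. At L4 against L1, 8 of 10 points are filled, all lower, where 21.8% of all genes were lower with intervals apart.

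The ordering over stages was read from the point values. Values that were lower at each later stage were found in 7 of the 10 genes, the exceptions being *dyf-2*, *osm-6* and *bbs-1*, where 12.6% of 13616 protein-coding genes showed that order. L1 was the highest stage for 9 genes, where 41.2% of all genes were highest at L1. L4 was the lowest stage for 9 genes, where 29.6% of all genes were lowest at L4. Among genes at the same level the shares were 12.8%, 34.1% and 32.2%, and these orders take no account of the intervals.

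Some genes share ground with a neighbour, and the sources used here do not state whether strand was used in counting. For 4 of the 10 the listed span meets another protein-coding gene. *osm-6* shares 22 bases with R31.2 on the opposite strand, which stood far higher, with 54.8, 79.4, 102.8 and 92.5 FPKM in stage order, the last 3 values above their own intervals. *osm-1* shares 48 bases with K08B5.2 (1.85 to 3.22 FPKM). *sid-2*, the gene for a gut protein of double-stranded RNA uptake, lies within *dyf-2* on the opposite strand and shares 27 exonic bases with it in the WBcel235 annotation. It stood at 13.4, 16.6, 15.7 and 13.3 FPKM. *che-13* holds F59C6.16 and F59C6.8, with no exonic base in common. The part of these neighbours in the values was not tested. The other 6 genes, *che-11*, *che-2*, *osm-5*, *dyf-1*, *bbs-1* and *bbs-8*, were all lower at L4 than L1 with intervals apart. Of all genes 21.8% were, and of genes at the same level 12.5%. *osm-1* and *dyf-2*, which meet a neighbour, were lower by the same rule. Of the 10 genes 3 lie on chromosome I, 1 on III, 3 on V and 3 on X, which hold 14.4%, 13.3%, 25.1% and 13.6% of protein-coding genes.

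The other genes of ciliary transport were examined as a list of 18 IFT and BBS genes. At L4 against L1, 14 of the 18 reached 1 FPKM in one of the stages, and 8 of these were lower with intervals apart, where 21.8% of all genes were, and none was higher. The 8 were *daf-10*, *ifta-1* and *ift-139* of IFT-A, *ift-74*, *ift-81*, *dyf-6* and *ifta-2* of IFT-B, and *bbs-9*. *bbs-9*, another BBSome gene, stood at 2.47 FPKM (1.76 to 3.16) at L1 and 0.669 (0.380 to 0.988) at L4. *ifta-2*, which encodes a Rab-like small GTPase, stood at 2.97 (1.63 to 4.30) and 0.704 (0 to 1.41). These 2 genes also passed the 2-fold rule. *dyf-6*, the worm IFT46, stood at 4.31 (3.02 to 5.59) and 2.14 (1.35 to 2.94). The most abundant of the list were *ift-43* (listed as C25H3.12) and *ift-20*, whose intervals were wide and overlapped, with 8.07 (3.86 to 8.75) and 4.80 (1.38 to 6.19) FPKM at L1 and 4.89 (2.11 to 5.92) and 3.65 (0.871 to 4.57) at L4. The median gene of the list stood at 47.4% of its L1 level at L4, beside 45.2% for the 10 genes. At L2 and L3 these medians were 71.2% and 64.4% for the list and 73.3% and 58.1% for the 10.

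Of 7 ciliary motor genes, 5 reached 1 FPKM. Of these, 3 were lower at L4 than L1 with intervals apart, where 21.8% of all genes were, and none was higher. *osm-3*, the kinesin of the outer segment, stood at 3.31 FPKM (2.52 to 4.11), 2.23 (1.60 to 2.89), 1.81 (1.25 to 2.37) and 1.36 (0.894 to 1.83) in stage order. *che-3*, the heavy chain of the dynein that drives the return, stood at 1.91 (1.66 to 2.16), 1.02 (0.849 to 1.19), 0.934 (0.774 to 1.09) and 0.797 (0.646 to 0.948), with L1 above all later stages. *klp-11* and *klp-20* encode the motor subunits of kinesin-II. *klp-11* stood far above the IFT genes, at 31.7 FPKM (28.6 to 34.8) at L1 and 14.9 (12.9 to 16.9) at L4. *klp-20* stood at 6.17 (4.81 to 7.20) and 5.52 (4.30 to 6.60), with overlapping intervals. The genes of the motor subunits thus stood at unequal levels at both stages. *che-3* was named after its values were seen, as one of the 3.

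The transition zone is the gate at the base of the cilium. Of 11 genes of this region and the basal body, 8 reached 1 FPKM. Of these, 5 were lower at L4 than L1 with intervals apart, where 21.8% of all genes were, and none was higher. The 5 were *mks-3*, *mks-5*, *mks-6*, *nphp-4* and *tmem-231*. *nphp-4*, the worm nephrocystin-4 gene, stood at 2.38 FPKM (1.91 to 2.86) and 1.12 (0.785 to 1.43). *tmem-231* (listed as T26A8.2), a membrane protein of the gate, stood at 1.93 (1.14 to 2.67) and 0.211 (0 to 0.422) and passed the 2-fold rule. *hyls-1*, which acts at centrioles as well as at cilia, stood at 9.46 (6.76 to 12.2) and 6.78 (4.45 to 9.16), with overlapping intervals. *nphp-1* stood at 1.43 (0.905 to 1.94) and 0.953 (0.573 to 1.31), also overlapping. *mks-2* was listed at 0 at L1 and L3, and *mksr-1* at L2.

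Among 19 genes of ciliary signalling and its regulators, 13 reached 1 FPKM. Of these, 11 were lower at L4 than L1 with intervals apart and 1 was higher, where 21.8% of all genes were lower and 17.5% higher. *che-12*, needed for the structure of sensory endings, had the largest difference of the list and was lower at every step with intervals apart, at 5.95 FPKM (4.91 to 6.997), 3.75 (2.93 to 4.59), 2.27 (1.67 to 2.88) and 1.15 (0.722 to 1.59). *odr-3*, a G protein alpha subunit of olfactory neurons, stood at 6.19 (4.01 to 7.77) at L1 and 2.16 (1.19 to 3.01) at L4. *tub-1*, the tubby gene, stood at 6.64 (5.12 to 8.09) and 2.42 (1.69 to 3.13). *daf-19*, the RFX transcription factor that controls ciliary genes through the X-box of their promoters, stood at 14.4 (12.8 to 16.0), 16.0 (14.3 to 17.7), 12.1 (10.8 to 13.5) and 10.4 (9.04 to 11.7). Its L4 interval lay below that of L1, and its highest value was at L2. The value covers the whole gene and does not separate its transcripts. The gene that stood higher was *che-10* (listed as *dyf-14*), which encodes a rootletin of the ciliary rootlet, with 14.1 FPKM (12.97 to 15.2) at L1 and 18.8 (17.6 to 20.1) at L4. *grk-2*, a G protein-coupled receptor kinase gene, stood at 17.9 (14.8 to 18.8) and 9.70 (7.81 to 11.2).

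**Figure D3:**
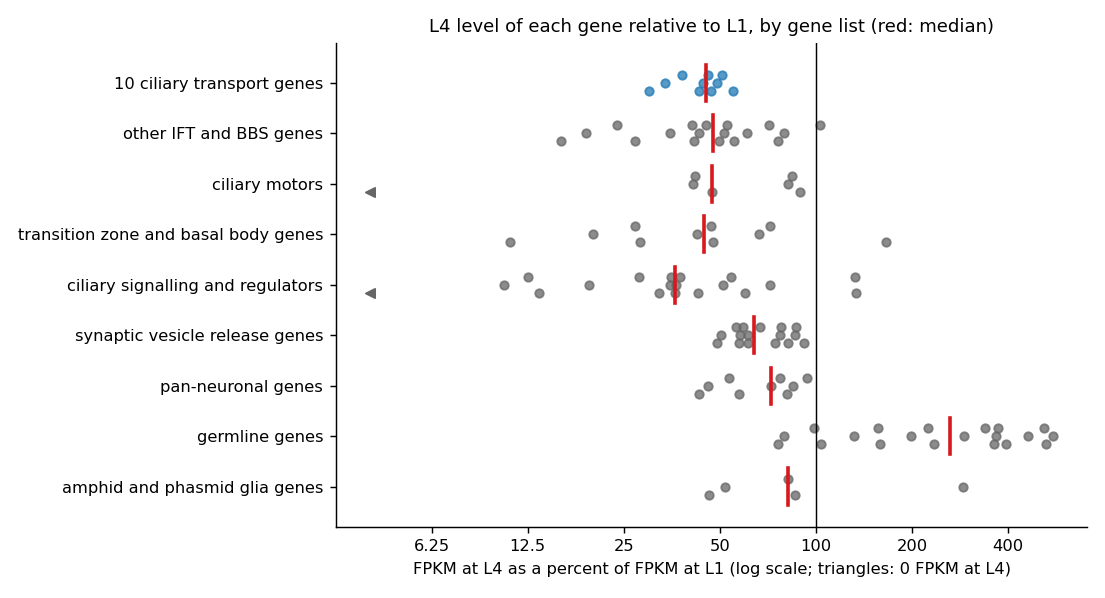
FPKM at L4 as a percent of FPKM at L1 on a log axis, 1 point per gene, by gene list, with the median of each list in red. The 10 ciliary transport genes lie between 30.0% and 55.0%; *unc-31* and the genes listed at 0 at L1, *mks-2* and *hlh-17*, are left out, and triangles mark 0 FPKM at L4.

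Genes of synaptic vesicle release and genes listed here as pan-neuronal were set beside them. Their use in all neurons was not checked, and in whole worms their values need not come from neurons alone. Of 17 genes of synaptic vesicle release, 11 were lower at L4 than L1 with intervals apart and none was higher. Of 9 pan-neuronal genes 7 were lower and none was higher, where 21.8% of all genes were lower and 17.5% higher. The median levels of these 2 lists at L1 were 24.1 and 60.4 FPKM, beside 2.58 for the 10 ciliary genes. Genes at higher levels pass this rule more easily. The median synaptic gene stood at 63.8% of its L1 level at L4 (range 49.1% to 91.8%) over 16 genes, and the median pan-neuronal gene at 72.1% (42.995% to 93.8%), beside 45.2% (30.0% to 55.0%) for the 10 ciliary genes. At L2 the median synaptic gene stood at 100.8% of its L1 level and the median ciliary transport gene at 73.3%. The difference between the lists was not tested, the genes are not replicates, and the lower levels of the ciliary genes make their single values less precise. *unc-57*, which encodes endophilin, stood at 81.7 FPKM (75.4 to 88.1) at L1 and 74.99 (69.2 to 80.9) at L4. *snb-1*, the synaptobrevin gene, was listed at 256.2 and 190.7 FPKM, both above their own intervals, and *unc-44*, the ankyrin gene, stood at 141.4 (137.3 to 147.8) and 119.7 (114.2 to 125.2). *unc-31* was left out of these percentages because its L1 value of 2412 FPKM has an interval of 4.14 to 11402.

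Germline genes moved the other way in the same libraries. Of 20 such genes, 14 were higher at L4 than L1 with intervals apart, where 17.5% of all genes were. Only *mex-3* was lower with intervals apart, where 21.8% of all genes were. Their summed FPKM was 347.9 in L1 (317.5 to 379.0 by the bounds), 326.9 in L2, 358.4 in L3 and 530.7 in L4 (483.1 to 569.1), and none of the 20 was at 0 in any library. The sum rests mostly on *car-1* and *cgh-1*, genes of RNA-binding proteins in germline granules, which stood at 172.2 and 75.4 FPKM at L1 and 178.1 and 99.5 at L4. The median gene of the list stood at 90.3% of its L1 level at L2, 122.9% at L3 and 262.5% at L4. *glh-1*, a P granule helicase, stood at 13.5 FPKM (11.3 to 14.7) at L1 and 74.5 (66.1 to 74.7) at L4. *gld-1*, a germline translational repressor, stood at 10.3 (8.74 to 11.9) and 35.0 (32.0 to 37.9). *pgl-1* and *pgl-3*, which encode P granule proteins, stood at 6.69 (5.58 to 7.80) and 1.48 (0.963 to 2.03) at L1 and at 26.4 (24.1 to 28.7) and 7.67 (6.50 to 8.85) at L4. *glp-1*, the Notch receptor of germline stem cells, stood at 1.48 (1.11 to 1.83) and 7.80 (6.96 to 8.63), and *htp-3*, a gene of the meiotic chromosome axis, at 1.88 (1.30 to 2.44) and 8.64 (7.02 to 10.1). FPKM is relative to all fragments of a library, and the part of the germline in the ciliary values was not tested.

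**Figure D4:**
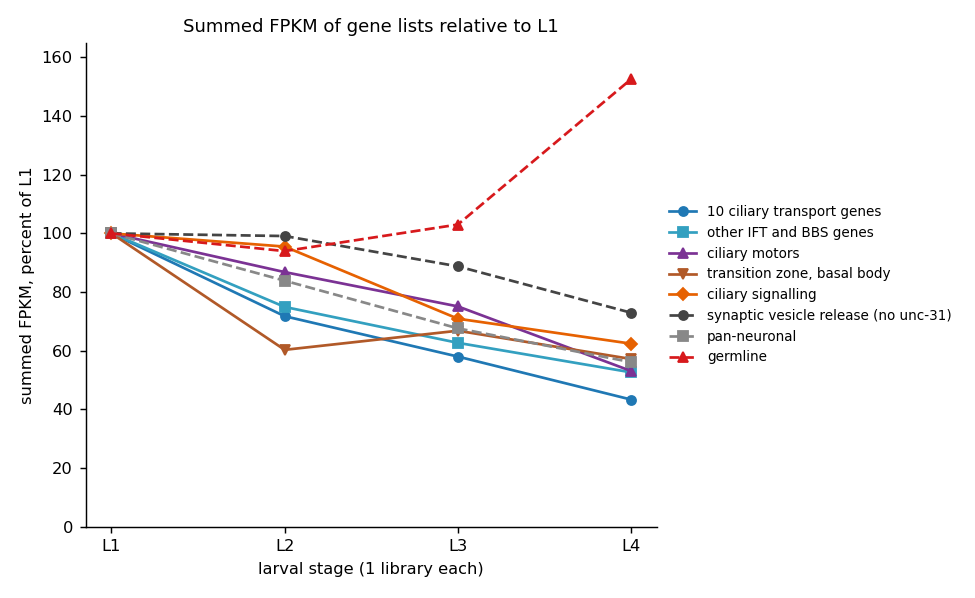
Summed FPKM of each gene list (vertical axis, percent of its L1 value) at L1 to L4 (horizontal axis), with 1 library per stage. The 10 ciliary transport genes stand at 43.4% at L4 and the 20 germline genes at 152.6%. The germline sum rests mostly on *car-1* and *cgh-1*, while the median germline gene stood at 262.5% of its own L1 level. The synaptic list is shown without *unc-31*.

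Genes with the most similar course were sought among 2161 other protein-coding genes whose mean FPKM lay within the range of the 10. Likeness was the distance between profiles over the 4 libraries, each profile being log2 of FPKM + 1 minus its own mean. The 5 nearest were F25G6.1 (distance 0.051), VH15N14R.1 (0.056), *npr-4* (0.057), F59B8.1 (0.058) and *glc-3* (0.064). *npr-4*, a neuropeptide receptor gene, had 2.74, 2.04, 1.70 and 1.30 FPKM in stage order, and *glc-3*, a glutamate-gated chloride channel gene, had 3.51, 2.44, 1.95 and 1.67. Of the 10 themselves, *dyf-1* (0.089) and *che-11* (0.098) lay nearest to the mean profile and *osm-6* (0.46) and *dyf-2* (0.39) farthest from it. With 4 points a likeness of this kind is a description only.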

How the data were processed

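The authors aligned the poly(A) RNA reads with TopHat2 2.0.8 and estimated gene levels with Cufflinks 2.1.1 on build ce10, per the submitters' processing notes, and deposited FPKM with a 95% interval for each gene of a library. Which annotation version and strand setting were used, and how reads with several matches were treated, is not stated in those notes or in the labels. Nothing was pooled, and the 4 libraries were grouped by the stage in their labels. From these values, differences were computed in Python 3.11.15 (numpy 2.4.6, pandas 2.3.3, matplotlib 3.10.9) as log2(FPKM + 1), with a pseudocount of 1, over protein-coding genes that reached an FPKM of 1 in either stage compared. Failed estimates were left out. A gene was counted when its intervals did not overlap, and by the 2-fold rule when it also differed 2-fold. The scripts were tested on simulated data. With 1 library per stage no p-value was computed, and intervals cover the estimate within a library only. The total depth is not used here; implied fragments were taken from the interval, with its distance from the value read as 2 SD of a Poisson count.

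Of 46096 listed genes, 44815 matched RefSeq by sequence name, 875 took a biotype from the WBcel235 annotation and 406 had none. Coordinates are those of the deposited files, counted from 1. Strand and exons are from WBcel235. Of the 108 genes in the other 8 lists, 102 matched by symbol and 5 by RefSeq symbol, and *cep-290* was not matched. The genes and lists were chosen with earlier results of these data known. Besides the 10 genes and *daf-19*, the text names in each list those past the 2-fold rule at L4 against L1 (at most 6, the largest differences), the 3 of highest mean FPKM, plus the 5 genes nearest in profile; any named otherwise was chosen after its values were seen. Alternatives were another pseudocount, no filter, 2 rescalings, the interval midpoint as the value, a 1.5-fold rule and a 2-fold rule without the intervals.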

Additional observations from a re-analysis of the deposited data

How the results depend on the processing

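Of 156 values recomputed under the alternatives, 145 stayed within the limits set, 11 moved and none changed direction. Of the 156, 112 were counts of genes, which cannot change direction. Some alternatives, such as the pseudocount, do not enter the interval rule, so the tally does not measure how robust the results are. The count of 8 genes lower at L4 than L1 with intervals apart held the same 8 genes under both rescalings. With these, 15.6% (median ratio) and 22.7% (sum) of all genes were lower with intervals apart. Median-ratio rescaling moved the median log2 difference of all genes at L4 against L1 from -0.10 to 0.01, and the share of lower genes among those with intervals apart from 55.5% to 42.3%, while the median of the 10 genes became -0.66. The 2-fold count at L4 against L1 was 1 in the main analysis, 6 with a pseudocount of 0.1 (where *osm-5* differed by -1.63), 7 with a 1.5-fold rule and 0 under both rescalings, where 6.72%, 12%, 3.43% (median ratio) and 4.35% (sum) of all genes were lower, beside 4.66% in the main analysis. At L2 against L1 it was 0 in the main analysis, 1 with a pseudocount of 0.1 and 2 with a 1.5-fold rule, where 2.58%, 3.42% and 6.31% of all genes were lower. The count with intervals apart at L2 against L1 was 2, but 1 after median-ratio rescaling (*bbs-1* was lost, and 10.5% of all genes were lower) and 1 without the 4 genes whose span meets another protein-coding gene, an alternative chosen after seeing the data. Without those 4 the counts at L3 against L2 and at L4 against L3 were 0 in place of 1, since *osm-1* and *dyf-2* are among them. The planned search of promoters for the X-box, and its alternative with 1 mismatch, were not run. No paired analysis was possible because only 1 library was made per stage. The number of fragments per gene limits what single steps can show.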

Other observations

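Among 6 genes listed here as genes of the glia that wrap amphid and phasmid sensory endings, 5 reached 1 FPKM at L1 or L4. Their use in those glia was not checked. At L4 against L1, 2 of these were lower and 1 was higher with intervals apart, where 21.8% of all genes were lower and 17.5% higher. *vap-1*, which encodes a protein secreted by the sheath glia, stood at 35.7 FPKM (32.2 to 39.3), 18.01 (15.6 to 20.5), 23.6 (20.8 to 26.3) and 16.5 (14.2 to 18.7) in stage order, with the L3 interval above that of L2. *fig-1* stood at 10.5 (9.50 to 11.5) at L1 and 5.41 (4.72 to 6.23) at L4. The gene that stood higher, *daf-6*, which shapes the channel around the cilia, was named after its values were seen. It stood at 0.950 (0.609 to 1.28), 3.88 (3.09 to 4.64), 1.93 (1.41 to 2.44) and 2.74 (2.11 to 3.36). *ptr-10* stood at 11.3 and 9.72, with overlapping intervals, and *hlh-17* was listed at 0 at L1.

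Among the pan-neuronal genes, *egl-3* and *egl-21*, which encode enzymes that process neuropeptides, passed the 2-fold rule at L4 against L1. *egl-3* stood at 374.7 FPKM (368.1 to 389.1) at L1 and 172.3 (165.8 to 180.3) at L4, and *egl-21* at 290.3 (281.6 to 303.2) and 124.8 (118.1 to 131.8). At L2 against L1, 3 of the 9 genes of this list were lower with intervals apart, *egl-3*, *egl-21* and *unc-119*, and 2 were higher, *unc-44* and *unc-70*, where 16.5% of all genes were lower and 13% higher. *unc-119* and *unc-70* were named after their values were seen.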
